A study of Homo sapiens with 15 samples.

Results

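This account follows 9 genes of the epidermal growth factor (EGF) receptor system in Caco-2, a line from a human colorectal adenocarcinoma whose cells grow into sheets resembling the absorptive epithelium of the gut. The genes were chosen by name, as parts of this system, with earlier results of these data known: the ligands AREG, EREG, HBEGF and TGFA, the receptors EGFR, ERBB2 and ERBB3, the feedback inhibitor ERRFI1 and the protease ADAM17. They are 9 of the 69215 genes listed in the count tables, and 8 of them, all but TGFA, passed the filter on low counts that left 12769 genes for testing. Caco-2 monolayers were left unexposed (control), or were exposed to polysorbate 20 (PS20) or to polysorbate 80 (PS80), each at 0.05% for 24 h, with 5 polyadenylated RNA libraries per group. PS20 and PS80 are nonionic food emulsifiers, polyoxyethylene sorbitan esters that carry laurate (PS20) or oleate (PS80) as their fatty acid. The series' title names the study's subject as how these emulsifiers impair the gut epithelial barrier. All libraries come from 1 cell line, and the labels do not say that replicates came from separate cultures, so p-values measure the spread between these libraries, which may be technical.

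The ligands of this system are made as proteins anchored in the membrane, and ADAM17 cuts most of them free. The soluble ligand binds EGFR, which pairs with a second EGFR or with ERBB2 or ERBB3 and switches on the RAS-RAF-ERK and PI3K-AKT cascades. ERRFI1 binds the active receptor kinase and restrains it, and ubiquitin ligases of the CBL family send the receptor for degradation. In the gut epithelium this signalling is known for its part in growth of the crypts and in repair of wounds, and amphiregulin, the product of AREG, and epiregulin, the product of EREG, are known ligands of normal and tumour epithelium of the colon.

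AREG and EREG are shown by sequence because they were the ligands that changed in both exposures, and because they are neighbours on chromosome 4, in the same orientation. On GRCh38, per the file headers, AREG (ENSG00000109321.11) spans chr4:74445136-74455005 and EREG (ENSG00000124882.4) chr4:74365145-74388749, both on the plus strand. The 250 bases before the annotated RefSeq start are given 5′ to 3′ (GRCh38.p14, plus strand), chr4:74444886-74445135 for AREG and chr4:74364895-74365144 for EREG, with matches to the motifs searched in capitals.
AREG: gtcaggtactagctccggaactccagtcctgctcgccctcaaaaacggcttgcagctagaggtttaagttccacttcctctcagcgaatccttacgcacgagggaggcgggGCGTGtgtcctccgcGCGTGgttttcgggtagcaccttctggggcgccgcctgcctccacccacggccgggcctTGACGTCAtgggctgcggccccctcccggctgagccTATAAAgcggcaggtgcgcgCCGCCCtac
EREG: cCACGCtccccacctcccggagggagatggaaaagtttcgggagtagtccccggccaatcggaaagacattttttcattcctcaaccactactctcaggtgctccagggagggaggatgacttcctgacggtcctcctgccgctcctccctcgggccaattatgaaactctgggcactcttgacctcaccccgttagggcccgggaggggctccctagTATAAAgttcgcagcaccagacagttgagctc
The motifs searched on both strands were the cyclic AMP response element TGACGTCA, the AP-1 site TGANTCA, the core of the xenobiotic response element GCGTG, the TATA box TATAAA and the GC box GGGCGG; none of the matches shown overlaps another. Both windows held a TATA box near the start, 29 bases before it in AREG and 32 in EREG, a motif that 10.7% of the 35116 RefSeq windows of this length held. The AREG window also held the response element, 65 bases before the start, which 1.65% of all windows held, and the EREG window did not hold these letters. The AP-1 site was in neither window (6.57% of all windows), while the shorter GCGTG (32.2%) was in both and GGGCGG (42.6%) in that of AREG. Windows were found for 8 of the 9 genes, and no second member window held TGACGTCA. These matches describe the letters only.

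Control libraries held 4183096 to 13616301 counted reads, PS20 libraries 6749086 to 17251564 and PS80 libraries 6769409 to 42271053. The cells' identity was checked by 10 epithelial and enterocyte markers: 9 were tested, and KRT20 had 0 counts in every library. Their summed level was 9689 to 11295 CPM (read counts scaled to library size) in control, 8253 to 8888 CPM with PS20 and 10026 to 10507 CPM with PS80. The sum, in which the keratin gene KRT8 was the most abundant (a mean of 4426 CPM in control and 2678 CPM with PS20), was lower in every PS20 library than in any other, but with PS20 4 of the 9 tested markers were called higher and 3 lower than in control, with a median log2 fold change of 0.07. With PS80 1 was higher and 0 lower. In all, 77.8% of the tested markers were called with PS20 and 11.1% with PS80, against 48.3% and 33.4% of all genes. The part of these markers in the PS20 results was not tested. Of 16 fibroblast, endothelial and blood cell markers, 7 were tested. Their sum was 170 to 192 CPM in control, 169 to 192 CPM with PS20 and 158 to 210 CPM with PS80. Most of it came from COL1A1 (means of 96.1, 99.8 and 105 CPM). With each emulsifier 2 of the 7 were called higher and 1 lower, 42.9%, against 48.3% of all genes with PS20 and 33.4% with PS80. DCN, CDH5, KDR, PTPRC, CD68 and HBB had 0 counts in all control libraries. The same held for DCN, CDH5, KDR and HBB with PS20, and for PTPRC and HBB with PS80. The authors counted PS80 replicates 1, 3, 4 and 5 with a later featureCounts version (2.0.3) than the other 11 libraries (2.0.0), so in those 4 libraries the version and PS80 cannot be told apart; PS80 replicate 2 alone shares the version of the rest.

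The ligand genes AREG and EREG rose with both emulsifiers, the receptor gene EGFR rose with PS80, and ERBB2 and ERRFI1 rose with PS20. In this fit, which has no replicate block, no member was called lower. With the block ERBB3 was called lower with PS80, as given with that gene. The block also called EGFR lower with PS20, and ERBB2 and ERBB3 lower with PS80 than with PS20, as given at the end. With PS20, 4 of the 8 tested members were called higher and 0 lower by edgeR's quasi-likelihood test (Benjamini-Hochberg adjusted over all 12769 genes, threshold 0.05), in a comparison that called 24.4% of all genes higher and 23.9% lower, 48.3% in all. With PS80, 3 members were called higher and 0 lower, against 17.4% and 16.0% of all genes (33.4% in all). Between PS80 and PS20, 2 members were higher with PS80 and 0 lower, against 18.2% and 17.2% of all genes (35.4% in all). In either direction, 50% of the tested members were called with PS20, 37.5% with PS80 and 25% between the emulsifiers, shares near or under the background, so the counts by themselves are no result about these genes. The median log2 fold change of the 8 genes was 0.16 with PS20, 0.16 with PS80 and -0.06 between PS80 and PS20, beside 0.01, 0.00 and -0.00 for all tested genes. Both comparisons with control share the same 5 control libraries.

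**Figure D1:**
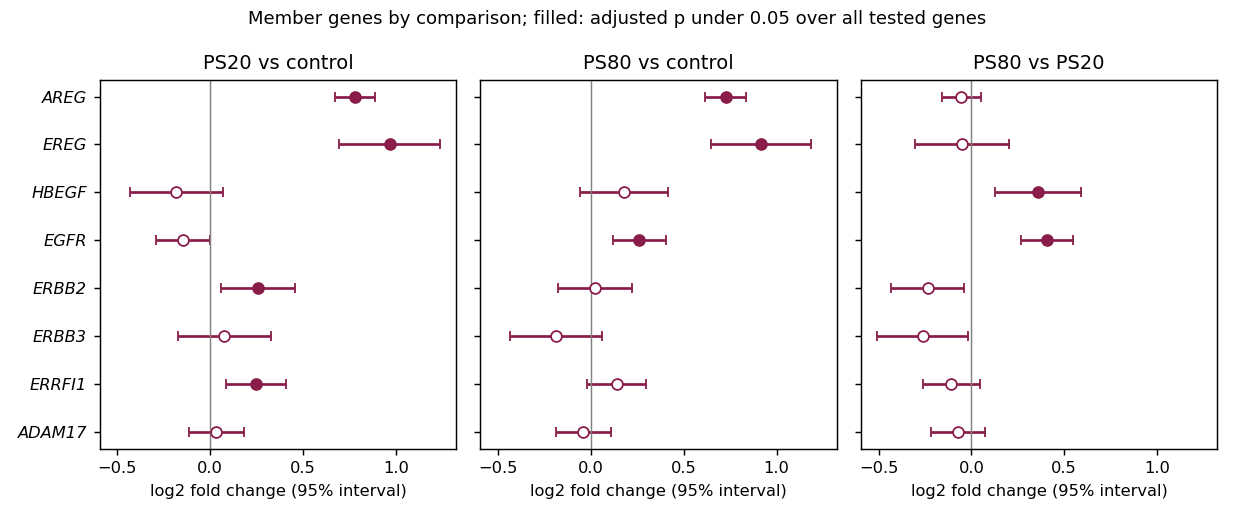
Log2 fold change (x axis) of the 8 tested members in each of the 3 comparisons, with the 95% interval; filled points had an adjusted p under 0.05 over all tested genes. AREG and EREG lie to the right in both comparisons with control and near 0 between the emulsifiers, while EGFR and HBEGF lie to the right between PS80 and PS20.

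AREG encodes amphiregulin, a ligand that binds EGFR alone among the receptors of the family. Its level in replicates 1 to 5 was 132, 110, 124, 116 and 120 CPM in control, 197, 216, 207, 207 and 203 CPM with PS20 and 212, 194, 203, 190 and 193 CPM with PS80. The 10 exposed libraries all lay above the 5 control libraries, with no overlap, and the 2 exposed groups overlapped. AREG rose 1.72-fold with PS20, from 120 ± 8.46 to 206 ± 6.82 CPM (SD, n = 5), a log2 fold change of 0.78 ± 0.05 (SE; edgeR adjusted p = 2.83e-10). It rose 1.65-fold with PS80, to 199 ± 9.10 CPM (SD, n = 5), a log2 fold change of 0.73 ± 0.05 (SE; edgeR adjusted p = 9.28e-09). By p it ranked 5th among the 12769 genes in the PS80 comparison and 45th in the PS20 comparison. With PS80 replicate 2, which shares the featureCounts version of the controls, as the sole PS80 library the log2 fold change was 0.69 (edgeR adjusted p = 1.22e-05). In bulk RNA of this kind, a change in the number of expressing cells and a change in RNA per cell cannot be told apart, for this gene and those that follow.

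EREG encodes epiregulin, which binds EGFR and ERBB4. Its level in replicates 1 to 5 was 51.5, 36.9, 28.6, 42.6 and 42.5 CPM in control, 83.1, 99.9, 69.5, 74.4 and 71.0 CPM with PS20 and 92.6, 87.7, 63.3, 67.2 and 69.7 CPM with PS80. Every exposed library was again above every control library, but the values within a group were more scattered than those of AREG, and in both exposed groups replicates 1 and 2 were the highest. EREG rose 1.95-fold with PS20, from 40.4 ± 8.45 to 79.6 ± 12.5 CPM (SD, n = 5), a log2 fold change of 0.97 ± 0.13 (SE; edgeR adjusted p = 3.78e-06). It rose 1.89-fold with PS80, to 76.1 ± 13.1 CPM (SD, n = 5), a log2 fold change of 0.92 ± 0.13 (SE; edgeR adjusted p = 2.19e-05).

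Between the emulsifiers neither of these ligands passed the test. The log2 difference, PS80 against PS20, was -0.05 for AREG, with a 95% interval from -0.16 to 0.05 (edgeR adjusted p = 0.439). For EREG it was -0.05, with an interval from -0.30 to 0.20 (edgeR adjusted p = 0.782).

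HBEGF, heparin-binding EGF-like growth factor, is a ligand of EGFR and ERBB4 that is held at the cell surface by heparan sulphate. In replicates 1 to 5 HBEGF stood at 10.9, 9.66, 14.8, 11.5 and 11.996 CPM in control, 8.70, 9.29, 11.3, 9.82 and 11.5 CPM with PS20 and 12.8, 13.01, 14.6, 11.3 and 13.8 CPM with PS80. Control lay between the exposed groups and overlapped both, and the lowest PS80 library lay within the PS20 range. HBEGF did not pass the test in either comparison with control (log2 fold change of -0.18 ± 0.12 with PS20, edgeR adjusted p = 0.220, and 0.18 ± 0.11 with PS80, edgeR adjusted p = 0.246). It was 1.28-fold higher with PS80 than with PS20, a log2 difference of 0.36 ± 0.11 (SE; 95% interval 0.13 to 0.59, edgeR adjusted p = 0.0161). That call was lost within replicates 1 and 2 (0.53, edgeR adjusted p = 0.0871), within replicates 3 to 5 (0.28, edgeR adjusted p = 0.0828) and with PS80 replicate 2 as the sole PS80 library (0.35, edgeR adjusted p = 0.151).

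TGFA, transforming growth factor alpha, is a ligand of EGFR and had almost no reads. Its counts in replicates 1 to 5 were 2, 0, 0, 1 and 0 in control, 1, 0, 2, 2 and 1 with PS20 and 3, 6, 0, 0 and 2 with PS80. No library held more than 6 reads, the groups overlapped, and the gene was not tested, so no difference was detectable at counts this low.

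The 7 other ligands of the family and ERBB4, the fourth receptor, were near the limit of detection as well. Of these 8 genes EGF alone was tested, with a mean of 1.92 CPM in control, 1.42 CPM with PS20 and 1.81 CPM with PS80, and it passed the test in no comparison (log2 fold change of -0.52 ± 0.25 with PS20, edgeR adjusted p = 0.0937; -0.07 ± 0.22 with PS80; 0.45 ± 0.23 between PS80 and PS20, edgeR adjusted p = 0.137). Without PS20 replicate 1, its highest PS20 library at 2.36 CPM, EGF was called lower with PS20 than in control (-0.73, edgeR adjusted p = 0.0153) and higher with PS80 than with PS20 (0.66, edgeR adjusted p = 0.0240). Summed over the 5 libraries of control, PS20 and PS80, betacellulin (BTC) had 12, 14 and 19 counts and epigen (EPGN) 0, 2 and 2. The neuregulins, ligands of ERBB3 and ERBB4, had at most 7 counts in any group for each of NRG1, NRG2, NRG3 and NRG4. ERBB4 had 0, 1 and 4 counts.

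**Figure D2:**
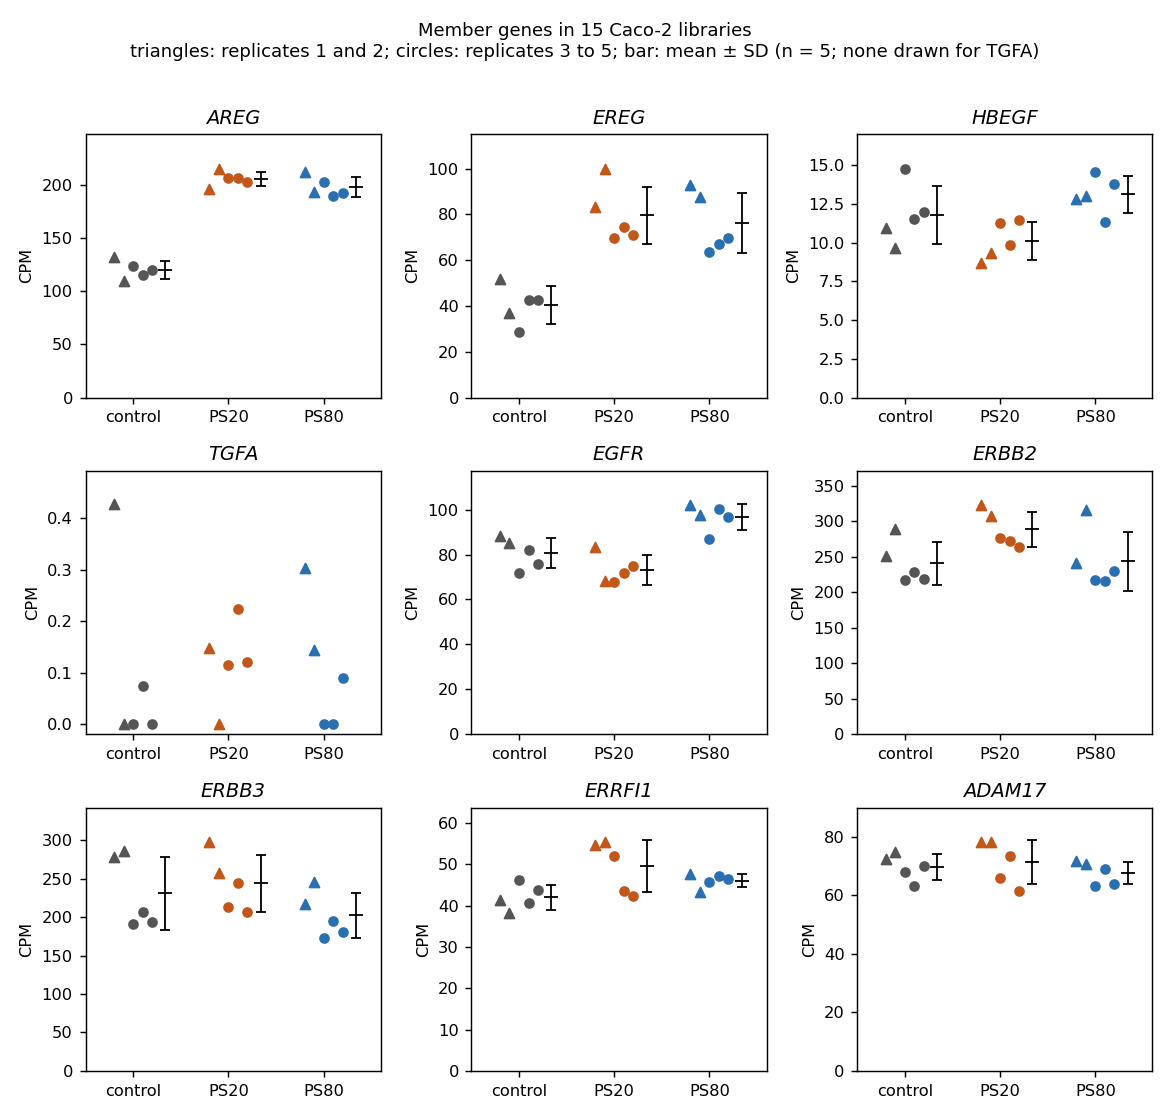
CPM (y axis, linear) of each member in each of the 15 libraries, by group; triangles are replicates 1 and 2, circles replicates 3 to 5, and the bar is the mean ± SD (n = 5), not drawn for TGFA. The exposed libraries of AREG (190 to 216 CPM) and EREG (63.3 to 99.9 CPM) lie above all control libraries, and PS80 libraries of EGFR lie above all PS20 libraries.

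EGFR encodes the receptor that AREG, EREG, HBEGF and TGFA products all bind. Its level in replicates 1 to 5 was 88.1, 85.0, 71.9, 82.0 and 75.7 CPM in control, 83.5, 68.0, 67.7, 71.6 and 74.8 CPM with PS20 and 102, 97.4, 87.0, 100.1 and 96.7 CPM with PS80. All PS80 libraries lay above all PS20 libraries, whereas PS80 and control overlapped through PS80 replicate 3 and control replicate 1. EGFR rose 1.199-fold with PS80, from 80.5 ± 6.66 to 96.6 ± 5.78 CPM (SD, n = 5), a log2 fold change of 0.26 ± 0.07 (SE; edgeR adjusted p = 0.00555). With PS20 its level was 73.1 ± 6.48 CPM (SD, n = 5), a log2 fold change of -0.15 ± 0.07 that did not pass (95% interval -0.29 to -0.00, edgeR adjusted p = 0.0903) but did without control replicate 3 (-0.19, edgeR adjusted p = 0.0398) or PS20 replicate 1 (-0.20, edgeR adjusted p = 0.0237). Taken directly between the emulsifiers, EGFR was 1.33-fold higher with PS80, a log2 difference of 0.41 ± 0.07 (SE; 95% interval 0.27 to 0.55, edgeR adjusted p = 9.52e-05). The rise against control was lost within replicates 1 and 2 (0.20, edgeR adjusted p = 0.239) and, at a like size, with PS80 replicate 2 as the sole PS80 library (0.27, edgeR adjusted p = 0.0843). The difference between the emulsifiers held in both of these fits (0.40, edgeR adjusted p = 0.0337, and 0.43, edgeR adjusted p = 0.0102).

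ERBB2 encodes a receptor with no ligand of its own, the preferred partner of the other receptors. ERBB2 stood in replicates 1 to 5 at 251, 290, 217, 228 and 219 CPM in control, 323, 308, 277, 273 and 264 CPM with PS20 and 241, 316, 217, 216 and 231 CPM with PS80. The PS20 libraries were high as a group but overlapped control through control replicate 2, and PS80 replicate 2 stood apart from the other PS80 libraries, which lay between 216 and 241 CPM. ERBB2 rose 1.196-fold with PS20, from 241 ± 30.4 to 289 ± 25.1 CPM (SD, n = 5), a log2 fold change of 0.26 ± 0.10 (SE; edgeR adjusted p = 0.0299). That call was lost within replicates 1 and 2 (0.22, edgeR adjusted p = 0.224) and without any 1 of control replicates 3, 4 and 5 (edgeR adjusted p = 0.0893, 0.0715 and 0.0800) or PS20 replicates 1 and 2 (edgeR adjusted p = 0.0817 and 0.0707). With PS80 the level was 244 ± 41.5 CPM (SD, n = 5), and the log2 fold change of 0.02 ± 0.09 did not pass (edgeR adjusted p = 0.887). The log2 difference between PS80 and PS20 was -0.24 ± 0.09 (edgeR adjusted p = 0.0555). Without PS80 replicate 2 the difference was -0.35 (edgeR adjusted p = 0.00140), and with it as the sole PS80 library 0.14 (edgeR adjusted p = 0.471). With that library kept, the difference also passed without control replicate 2 (-0.23, edgeR adjusted p = 0.0356), without PS20 replicate 5 (-0.27, edgeR adjusted p = 0.0489) and without the filter on low counts (-0.20, edgeR adjusted p = 0.0128). It passed too with the replicate block (-0.25, edgeR adjusted p = 3.98e-04), though the numbers were not taken as pairs between the emulsifiers. The term for replicates 1 and 2 against 3 to 5 gave the same call (-0.24, edgeR adjusted p = 0.00103). Against control, PS80 replicate 2 as the sole PS80 library gave 0.39. It is also the PS80 library counted with the earlier featureCounts version, and 6.93% of the exonic bases of ERBB2 lie in exons of MIEN1 and PGAP3 on the other strand; the part of either in the result was not tested.

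ERBB3 encodes a receptor that binds neuregulins, has little kinase activity and couples to PI3K through its partners. Over replicates 1 to 5 it measured 278, 286, 191, 206 and 193 CPM in control, 298, 257, 213, 245 and 207 CPM with PS20 and 218, 246, 173, 195 and 181 CPM with PS80. The 3 groups overlapped, and within each group replicates 1 and 2 were the highest. ERBB3 passed the test in no comparison: the log2 fold change was 0.08 ± 0.12 with PS20 (edgeR adjusted p = 0.630), -0.19 ± 0.12 with PS80 (edgeR adjusted p = 0.243) and -0.26 ± 0.12 between PS80 and PS20 (edgeR adjusted p = 0.0904). With PS20 it was called higher within replicates 3 to 5 (0.17, edgeR adjusted p = 0.0182) and was -0.03 within replicates 1 and 2 (edgeR adjusted p = 0.884). Libraries with the same replicate number deviated together in PS80 and control. With that number as a block ERBB3 was lower with PS80 than in control (-0.18, edgeR adjusted p = 0.00860). A term for replicates 1 and 2 against 3 to 5 gave the same call (-0.18, edgeR adjusted p = 0.0125). Neither replicates 1 and 2 alone (-0.28, edgeR adjusted p = 0.0811) nor replicates 3 to 5 alone (-0.12, edgeR adjusted p = 0.139) gave it. With PS80 replicate 2 as the sole PS80 library, ERBB3 against control was at 0.09. Without that library ERBB3 was lower with PS80 than with PS20 (-0.35, edgeR adjusted p = 0.0270). With it kept, that difference was called without the filter on low counts (-0.23, edgeR adjusted p = 0.00368) and with the 2 groups compared alone (-0.26, edgeR adjusted p = 0.0494). The replicate block (-0.27, edgeR adjusted p = 2.11e-04) and the term for replicates 1 and 2 against 3 to 5 (-0.27, edgeR adjusted p = 3.84e-04) called it too. The numbers were not taken as pairs between the emulsifiers.

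ERRFI1, also known as MIG6, encodes the feedback inhibitor of the receptor kinases and is itself induced by EGF receptor signalling. Replicates 1 to 5 gave 41.3, 38.2, 46.2, 40.5 and 43.8 CPM in control, 54.6, 55.4, 52.1, 43.6 and 42.3 CPM with PS20 and 47.7, 43.4, 45.8, 47.0 and 46.4 CPM with PS80. In PS20 replicates 1 to 3 were above every other library and replicates 4 and 5 within the control range, while the PS80 libraries were close to each other and overlapped control. ERRFI1 rose 1.19-fold with PS20, from 42.01 ± 3.07 to 49.6 ± 6.18 CPM (SD, n = 5), a log2 fold change of 0.25 ± 0.08 (SE; edgeR adjusted p = 0.0125). The log2 fold change was 0.47 within replicates 1 and 2 (edgeR adjusted p = 0.00825) and 0.13 within replicates 3 to 5, where the call was lost (edgeR adjusted p = 0.198). With PS80 the value of 0.14 ± 0.08 did not pass (edgeR adjusted p = 0.177), nor did the difference of -0.11 ± 0.07 between PS80 and PS20 (edgeR adjusted p = 0.273).

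ADAM17 encodes the metalloprotease that releases AREG, EREG, HBEGF and TGFA proteins from the membrane. Its level in replicates 1 to 5 was 72.5, 74.7, 67.9, 63.3 and 69.8 CPM in control, 78.0, 78.1, 65.7, 73.5 and 61.4 CPM with PS20 and 71.5, 70.5, 63.0, 68.9 and 63.8 CPM with PS80. The 3 groups overlapped throughout. It passed the test in no comparison, with a log2 fold change of 0.03 with PS20 (95% interval -0.12 to 0.18), -0.04 with PS80 (-0.19 to 0.11) and -0.07 between PS80 and PS20 (-0.22 to 0.07). Of its exonic bases 11.7% lie in exons of other genes, chiefly IAH1 on the other strand, and reads there are not separated by strand.

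Levels can be compared between genes only per length, and were therefore set as CPM per kb of exonic sequence. That length joins all annotated exons of a gene, 1642 bases for AREG, 11711 for ERBB3, 15941 for EGFR and 15964 for ADAM17. The length of the transcripts made in these cells was not measured, so levels and order between genes also depend on the annotation. In control the order was AREG at 73.3 ± 5.15, ERBB2 at 23.3 ± 2.95, ERBB3 at 19.7 ± 4.03, ERRFI1 at 10.1 ± 0.734, EREG at 7.08 ± 1.48, EGFR at 5.05 ± 0.418, ADAM17 at 4.36 ± 0.275, HBEGF at 3.93 ± 0.632 and TGFA at 0.0204 CPM per kb (mean ± SD, n = 5). The ranges of ERBB2 and ERBB3 overlapped, as did those of neighbours from EREG down to HBEGF, so their order is not fixed by these libraries. AREG stood above every other member in every library of each group, with means of 125 ± 4.15 CPM per kb under PS20 and 121 ± 5.54 under PS80. EREG moved from below ERRFI1 in control, with separate ranges, to 13.9 ± 2.20 against 11.9 ± 1.48 CPM per kb with PS20 and 13.3 ± 2.30 against 11.0 ± 0.397 with PS80, where the ranges overlapped.

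**Figure D3:**
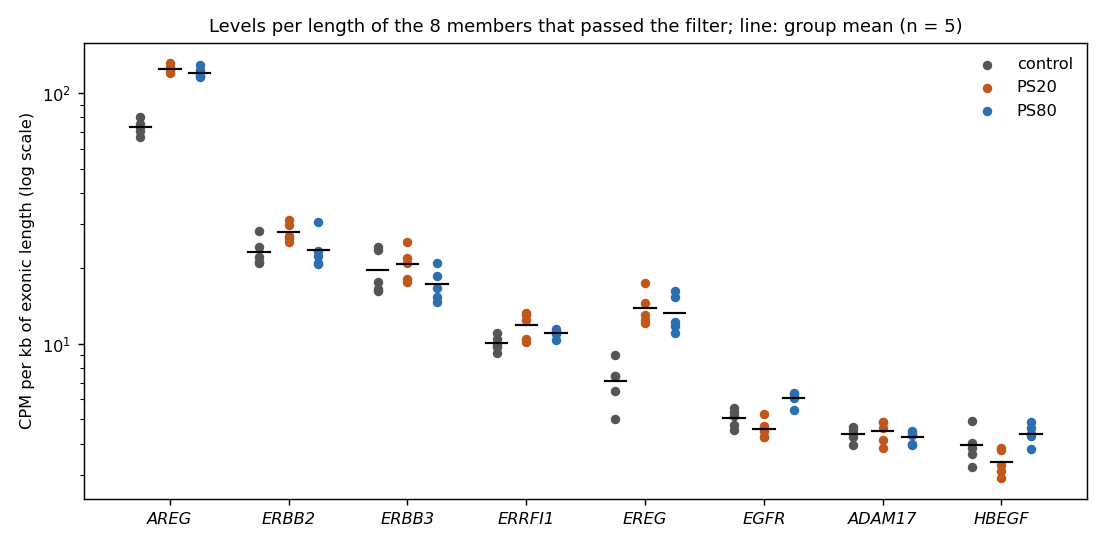
CPM per kb of exonic length (y axis, log scale) of the 8 members that passed the filter, in each library of each group; lines are group means (n = 5). AREG lies above all other members in every group, and EREG moves from below ERRFI1 in control to overlap with it in both exposed groups.

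Summed per length, the 4 ligand transcripts came to 84.4 ± 6.10 CPM per kb in control, 142.7 ± 5.54 with PS20 and 138.6 ± 7.03 with PS80 (SD, n = 5). AREG made up 86.9% ± 0.913 of that sum in control, 87.9% ± 0.9746 with PS20 and 87.2% ± 1.23 with PS80. The share of EREG was 8.37% ± 1.47, 9.74% ± 1.25 and 9.59% ± 1.35, and that of HBEGF was 4.67% ± 0.713, 2.37% ± 0.314 and 3.16% ± 0.292. A share depends on the whole sum. With PS80 the HBEGF share fell although its own level did not, at 3.93 ± 0.632 CPM per kb in control and 4.38 ± 0.403 with PS80. The ratio of AREG to EREG was 10.7 ± 2.48 in control, 9.15 ± 1.21 with PS20 and 9.26 ± 1.43 with PS80, with overlapping ranges. The ratio of EGFR to ERBB2 per length was 0.218 in control (0.190 to 0.233), 0.164 with PS20 (0.143 to 0.183) and 0.261 with PS80 (0.200 to 0.301); the PS20 range lay below both others, which overlapped. These shares and ratios are descriptions without a test, and their sizes rest on the annotated lengths.

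Replicates 1 and 2 differed from replicates 3 to 5 in several members, in a way the labels do not account for. ERBB2, ERBB3 and ADAM17 were higher in replicates 1 and 2 in all 3 groups, with no overlap: ERBB3, for example, averaged 282 against 197 CPM in control, 278 against 222 with PS20 and 232 against 183 with PS80. EREG showed the same split with PS20 (91.5 against 71.6 CPM) and with PS80 (90.2 against 66.7 CPM), and its ranges overlapped in control (44.2 against 37.9 CPM). AREG did not show it in any group. The exposure effects of AREG were nearly the same in both sets, with log2 fold changes of 0.77 and 0.79 for PS20 and 0.75 and 0.71 for PS80. For EREG they were 1.08 and 0.86 for PS20 and 1.06 and 0.76 for PS80. No member's effect differed between the sets by a test of that difference (edgeR, group by set term), in which 14, 11 and 0 of 12769 genes passed in the PS20, PS80 and PS80 against PS20 comparisons; the smallest p was that of ERRFI1 with PS20 (difference of -0.36, edgeR adjusted p = 0.351).

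Genes of ligand shedding other than ADAM17 were counted next. Of 8 tested, 4 were higher and 2 lower with PS20, and 4 higher and 1 lower with PS80, with median log2 fold changes of 0.19 and 0.13. Over all genes the shares called were 24.4% higher and 23.9% lower with PS20 and 17.4% and 16.0% with PS80, against 50% and 25%, and 50% and 12.5%, of this list. RHBDF2, which encodes iRhom2, a cofactor that carries ADAM17 to the cell surface, rose from 14.95 ± 1.71 to 25.1 ± 1.42 CPM with PS20 and 28.0 ± 3.39 CPM with PS80 (SD, n = 5), log2 fold changes of 0.75 (edgeR adjusted p = 2.36e-06) and 0.92 (edgeR adjusted p = 6.62e-07). The metalloprotease gene ADAM15 rose by 0.50 and 0.53, and TIMP3, an inhibitor of ADAM17, by 0.39 and 0.36. RHBDF1, the related cofactor iRhom1, fell by 0.33 with PS20 and was higher by 0.39 with PS80 than with PS20. Both calls of RHBDF1 were lost at a like size within replicates 1 and 2 (-0.30, edgeR adjusted p = 0.211, and 0.44, edgeR adjusted p = 0.0833). FRMD8, which stabilises the iRhom complex, fell by 0.45 with PS20; its value of -0.25 with PS80 was called (edgeR adjusted p = 0.0393) but lost the call without control replicate 2, 3, 4 or 5 or PS80 replicate 1, 2, 3 or 5 (edgeR adjusted p from 0.0530 to 0.113). Between PS80 and PS20, 1 gene of this list was higher and 1 lower, 25% called in all against 35.4% of all genes.

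Of 22 tested adaptors and members of the RAS-RAF-ERK cascade, 4 were higher and 6 lower with PS20 and 4 higher and 3 lower with PS80, with medians of -0.03 and -0.03. In all, 45.5% and 31.8% of the list were called, near the 48.3% and 33.4% of all genes. GRB7, an adaptor that binds ERBB2, fell from 63.7 ± 3.76 to 38.2 ± 2.88 CPM with PS20 and 47.7 ± 5.04 CPM with PS80 (SD, n = 5). The log2 fold changes were -0.75 (edgeR adjusted p = 9.41e-08) and -0.42 (edgeR adjusted p = 2.20e-04). Within replicates 1 and 2 the second was -0.40, where the call was lost (edgeR adjusted p = 0.0574). With PS80 replicate 2 as the sole PS80 library it was -0.25. The adaptors SHC1 (0.37 and 0.24) and GAB2 (0.45 and 0.26) and the kinase gene MAP2K2 (0.29 and 0.26) rose with PS20 and PS80. With PS80 the call of GAB2 was lost within replicates 3 to 5 (0.10, edgeR adjusted p = 0.188) and that of SHC1 within replicates 1 and 2 (0.34, edgeR adjusted p = 0.0569) and with PS80 replicate 2 as the sole PS80 library (0.26, edgeR adjusted p = 0.0671). Within replicates 1 and 2 the calls of MAP2K2 were lost at a like size (0.28, edgeR adjusted p = 0.0818, and 0.32, edgeR adjusted p = 0.0592). Between the emulsifiers 4 genes were higher and 3 lower with PS80, 31.8% of the list against 35.4% of all genes. Among them were the exchange factor SOS2 at -0.66 and the kinase gene BRAF at -0.28. The BRAF call was lost at a like size within replicates 1 and 2 (-0.31, edgeR adjusted p = 0.0979). With PS80 replicate 2 as the sole PS80 library the BRAF difference was -0.23.

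Of 8 tested genes of the PI3K-AKT branch, 1 was higher and 2 lower with PS20 (median -0.08) and 1 higher and 3 lower with PS80 (median 0.00); 37.5% and 50% were called in all, against 48.3% and 33.4% of all genes. The catalytic subunit PIK3CA rose by 0.43 with PS20, and the kinase gene AKT1 by 0.26 with PS80. Between the emulsifiers 2 were higher with PS80 and 2 lower, with AKT1 at 0.32 and PIK3CA at -0.31. That is 50% of the list, against 35.4% of all genes. With PS80 replicate 2 as the sole PS80 library the PIK3CA difference was -0.38. Of 19 tested genes of receptor inhibition, ubiquitination and sorting, 4 were higher and 5 lower with PS20 (median -0.04) and 5 higher and 5 lower with PS80 (median 0.02); 47.4% and 52.6% were called in all, against 48.3% and 33.4% of all genes. The ubiquitin ligase gene CBLC rose from 49.2 ± 4.68 to 75.0 ± 3.96 CPM with PS20 and 66.4 ± 7.65 CPM with PS80 (SD, n = 5), by 0.61 and 0.44 on the log2 scale. CBLB, of the same family, fell by 0.54 with PS80, and the deubiquitinase gene USP8 by 0.25 with PS20 and 0.32 with PS80. The USP8 call with PS20 was lost at a like size within replicates 1 and 2 (-0.27, edgeR adjusted p = 0.105). Between the emulsifiers 3 genes of this list were higher and 1 lower, CBLB at -0.35. In all 21.1% of the list were called there, under the 35.4% of all genes. The CBLB call was lost at a like size within replicates 1 and 2 (-0.31, edgeR adjusted p = 0.147). With PS80 replicate 2 as the sole PS80 library the CBLB difference was -0.29.

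Among genes known as transcriptional outputs of ERK, more were higher than lower in all 3 comparisons. Of 17 tested, 9 were higher and 2 lower with PS20, 13 higher and 1 lower with PS80, and 11 higher and 0 lower with PS80 than with PS20, with median log2 fold changes of 0.31, 0.70 and 0.41, against 24.4%, 17.4% and 18.2% of all genes called higher. The transcription factor gene MYC went from 51.4 ± 11.2 CPM to 116 ± 12.3 CPM with PS20 and 126 ± 21.3 CPM with PS80 (SD, n = 5), log2 fold changes of 1.18 (edgeR adjusted p = 1.10e-07) and 1.31 (edgeR adjusted p = 1.85e-07). SPRED1, which restrains RAS signalling, rose by 0.79 with PS20. The ETS factor gene ETV4 rose by 1.19 with PS80 (edgeR adjusted p = 1.16e-06). CCND1, which encodes cyclin D1, rose from 279 ± 7.15 to 405 ± 21.9 CPM with PS80 (SD, n = 5; 0.54, edgeR adjusted p = 4.36e-07) and was 0.40 higher with PS80 than with PS20 (edgeR adjusted p = 7.92e-06). The receptor tyrosine kinase gene EPHA2 and the feedback inhibitor gene SPRY2 were also higher with PS80 than with PS20, by 0.46 and 0.41. The exceptions were EPHA4, an ephrin receptor gene that fell from 43.9 ± 7.18 to 20.0 ± 4.30 CPM with PS20 and 28.4 ± 5.93 CPM with PS80 (SD, n = 5; -1.13, edgeR adjusted p = 2.57e-06, and -0.67, edgeR adjusted p = 0.00109), and PHLDA1, which fell by 0.45 with PS20 but was at -0.19 within replicates 1 and 2, where the call was lost (edgeR adjusted p = 0.289). Many of these genes also respond to inputs other than the EGF receptor.

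**Figure D4:**
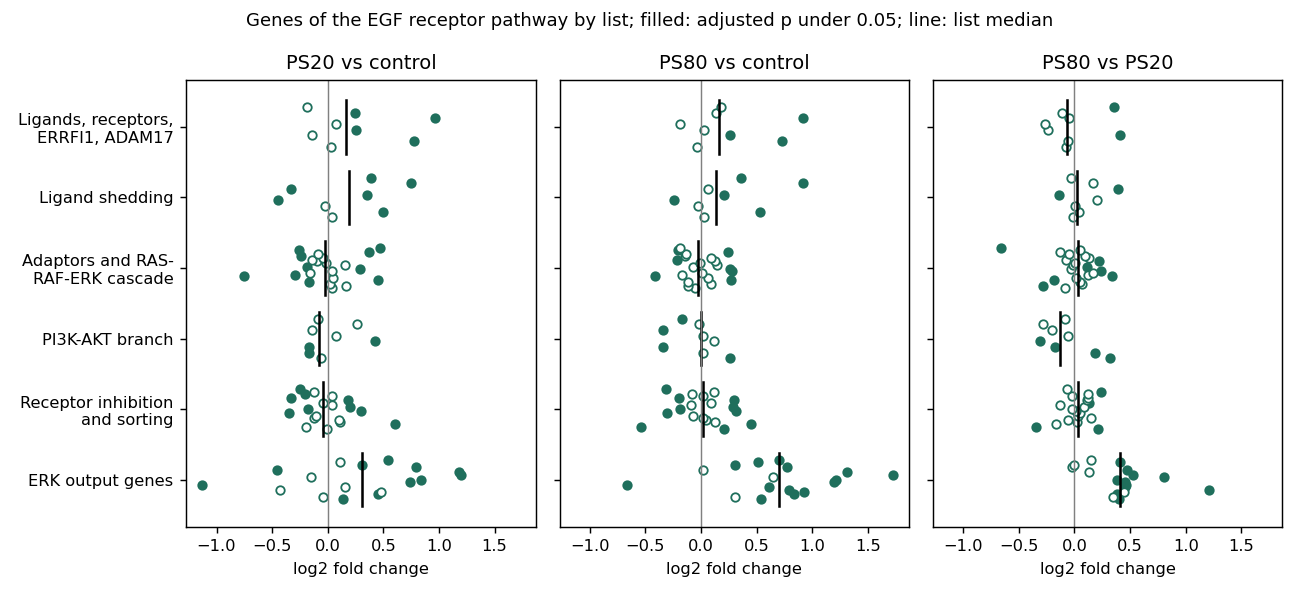
Log2 fold change (x axis) of every tested gene of the members and 5 lists of the pathway, in each comparison; filled points had an adjusted p under 0.05 and the vertical line is the list's median. The median of the ERK output genes is 0.31 with PS20, 0.70 with PS80 and 0.41 between PS80 and PS20, and the medians of the adaptor, PI3K-AKT and inhibition lists lie near 0.

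Around AREG, 24 annotated genes start within 500 kb and 4 of them were tested, AREG, EREG, MTHFD2L and PARM1. MTHFD2L, a gene of mitochondrial folate metabolism, did not pass (log2 fold change of 0.13 ± 0.18 with PS20 and 0.06 ± 0.18 with PS80). PARM1, which encodes a mucin-like membrane protein, rose by 0.44 ± 0.13 with PS20 (edgeR adjusted p = 0.00975) and by 0.38 ± 0.13 with PS80 (edgeR adjusted p = 0.0310), with overlapping groups in both. The PARM1 call with PS80 was lost without control replicate 1, 3, 4 or 5 or PS80 replicate 1 or 2 (edgeR adjusted p from 0.0518 to 0.105). EPGN and BTC lie in the same stretch and had too few reads to be tested.

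The genes whose profile over the 15 libraries was closest to that of a member were sought among 10285 genes with a mean of at least 5 CPM, by the mean absolute difference of log2 CPM, each gene centred on its own mean. For AREG they were the glutamine transporter gene SLC1A5 (0.0707), the death receptor gene TNFRSF21 (0.0744) and the ligand gene BMP2 (0.0773), where the median over all genes was 0.346. For EREG, with more scatter, they were RNF157 (0.129), LHX6 (0.130) and ADA (0.133), with a median of 0.441, and EREG and AREG were not among each other's 3 closest. For EGFR they were EPS8L1 (0.0676), ARAP1 (0.0680) and AKAP1 (0.0687), with a median of 0.224. EPS8L1 belongs to the family of EPS8, a substrate of the receptor. For ERBB2 they were SPATA20 (0.0565), CHP1 (0.0570) and PPARD (0.0633). For HBEGF they were SLC25A10 (0.0758), TOMM40 (0.0863) and GATA3 (0.0884), and for ERRFI1 BORCS5 (0.0487), RCC2 (0.0596) and CEBPG (0.0652). These distances are descriptions over libraries that share groups and depth, and nothing is drawn from them about control or function.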

How the data were processed

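RNA of Caco-2 cells was sequenced in 15 libraries, 5 per group, from polyadenylated RNA per the labels' protocols. The deposited tables hold whole-number read counts per gene. The authors' counting, per the file headers, used featureCounts (2.0.0 or 2.0.3), a mapping quality minimum of 10, GENCODE release 42 with patches and scaffolds, and no option for strand or read pairs; a gene cannot be told from an antisense partner. The submitters' processing notes name cutadapt, STAR 2.7.9a, DESeq2 1.32.0 and GRCh38. No member had an annotated copy on a scaffold. Symbols were found for 62625 of the 69215 identifiers (90.5%).

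Counts were tested in R 4.3.3 with edgeR 4.0.16: filterByExpr (minimum count 10, minimum total 15), trimmed mean of M-values factors (0.978 to 1.02), 1 term per group over all 15 libraries, quasi-likelihood test, Benjamini-Hochberg over 12769 genes, threshold 0.05. The common biological coefficient of variation was 8.91%. Errors of fold changes are standard errors; intervals are at the 95% level and cover the spread between libraries. CPM use the scaled library sizes; log2 CPM used a prior count of 2. The median total count was 8829612. The script was tested on simulated data. Named were all members, all 8 other family genes, up to 3 genes per list, comparison and direction with the smallest p (of which examples are given; some are not reported here), the 3 closest profiles and the tested neighbours of AREG. Promoter windows come from RefSeq (GRCh38.p14). Members, lists and tests were chosen with earlier results of these data known.

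Same-numbered libraries of PS80 and control deviated together from their group means (5 of 5 correlations across genes over 0.1, from 0.102 to 0.304). The numbers were therefore taken as pairs there, from the data and not the labels, and only in the alternative with a replicate block. The main fit has no block. Replicates 1 and 2 differed from 3 to 5 in several members, and the part of that split in these correlations was not tested. Alternatives were DESeq2 1.42.0 (test and size factors), no filter, 2 groups alone, a replicate block, a term for replicates 1 and 2 against 3 to 5, either set alone, PS80 replicate 2 as the sole PS80 library (assumed to vary like the other groups), and each library left out in turn. No libraries were identical. No protein sequences were used here.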

Additional observations from a re-analysis of the deposited data

Results flagged for a closer look

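In each of the 27 combinations of a member and a group, the highest and lowest of the 5 libraries were compared with the rest by Dixon's criterion, which chance alone meets in about 1 in 20 groups. It picked out 2. ERBB2 in PS80 replicate 2 stood at 316 CPM, against 216 to 241 CPM in the other 4 PS80 libraries. TGFA in control replicate 1 stood at 0.428 CPM, against 0 to 0.0732 CPM in the other 4 control libraries, which rests on 2 reads. No member's effect differed between replicate sets by the test of the difference.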

How the results depend on the processing

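Calls of AREG and EREG against control held in all 23 PS20 and 24 PS80 alternatives, with log2 fold changes of 0.75 to 0.81 and 0.69 to 0.75 for AREG and 0.86 to 1.08 and 0.76 to 1.11 for EREG; so did EGFR between PS80 and PS20 (0.38 to 0.46). Of 212 alternatives of called member fold changes, 200 kept the call and 12 lost it; of 356 of uncalled ones, 320 stayed uncalled in the same direction, 21 became calls and 15 changed sign. For the pathway genes, 1488 of 1607 alternatives kept the call and 119 lost it; among those given by value, leaving out 1 library ended a call for FRMD8 (PS80 against control) and for no other. Where no cause is stated, the cause was not tested. Within replicates 1 and 2 alone, with fewer samples, 3116, 2025 and 1397 genes were called in the PS20, PS80 and PS80 against PS20 comparisons, and with PS80 replicate 2 as the sole PS80 library 2816 and 2351 in the latter 2; leaving out 1 library gave 5609 to 6335, 3566 to 4322 and 3840 to 4694. Members called between PS80 and PS20 were 4 without the filter, with the replicate block, with the set term and without PS80 replicate 2, and 1 within replicates 1 and 2 and with PS80 replicate 2 alone; leaving out 1 library gave 2 to 4, and 3 to 4 with PS20.

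With the replicate block, ERBB2 and ERBB3 were called lower with PS80 than with PS20 (-0.25, edgeR adjusted p = 3.98e-04, and -0.27, edgeR adjusted p = 2.11e-04) and EGFR lower with PS20 than in control (-0.14, edgeR adjusted p = 0.0318); the numbers were not taken as pairs there (correlations of 0.0741 to 0.290 and -0.0264 to 0.248, with 3 of 5 over 0.1 in each; 3 and 4 of 5 libraries correlated best with their own number, as did 3 of 5 for PS80 and control). Beside ERBB3 with PS80, the block changed no call of a member against control with PS80. ERBB2 and ERBB3 were also called lower with PS80 than with PS20 within replicates 3 to 5 (-0.30 and -0.28), and ERBB3 without PS80 replicate 2 (-0.35, edgeR adjusted p = 0.0270). EGFR with PS20 was called lower without control replicate 3 (-0.19, edgeR adjusted p = 0.0398) or PS20 replicate 1 (-0.20, edgeR adjusted p = 0.0237). It was also called lower with the term for replicates 1 and 2 against 3 to 5 (-0.15, edgeR adjusted p = 0.0490).

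Changes of sign were all in uncalled values. With PS80 replicate 2 as the sole PS80 library, ADAM17 (0.0205) and ERBB3 (0.0893) against control and ERBB2 (0.139), ERBB3 (0.0220) and EREG (0.157) against PS20 changed sign. ERBB3 with PS20 was -0.0277 within replicates 1 and 2, and ERBB2 with PS80 -0.00377 within replicates 3 to 5. Leaving out 1 library gave -0.00466 to 0.0816 for ADAM17 and -0.00477 to 0.168 for ERBB3 with PS20, -0.0925 to 0.1001 for ERBB2 with PS80, and -0.124 to 0.0435 for EREG between PS80 and PS20. MTHFD2L with PS20 was -0.152 within replicates 3 to 5 and -0.0202 to 0.302 with 1 library left out; with PS80 it was -0.0435 within replicates 3 to 5, -0.329 with PS80 replicate 2 as the sole PS80 library and -0.0900 to 0.233 with 1 library left out. Low counts kept TGFA, BTC, EPGN, the neuregulins and ERBB4 from being tested. The deepest library, PS80 replicate 2 with 42271053 counted reads, held 6 reads of TGFA and 8 of BTC.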
